A study of Aethionema arabicum with 12 samples.

Results

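The genes that license DNA for replication were followed by RNA-seq in imbibed seeds of the Brassicaceae species Aethionema arabicum, Cyprus accession. The members are the gene models that the authors' deposited table pairs with any of 10 Arabidopsis thaliana gene codes, those of MCM2 to MCM7, MCM10, CDT1A, CDC6 and PCNA1. Of the 10 codes, 9 were paired with 12 of the 24932 gene models in the table. CDT1A was paired with 3 models and CDC6 with 2, and the other 7 codes with 1 model each. The code of PCNA1 was paired with no model in the table used here, so PCNA1 is not analysed here. All seeds were wild type, were kept on wet filter paper at 14 °C, and were collected intact and before germination. The seeds of 1 group had 23 h of white light of 100 µmol photons per square metre and second (called 1 d below), those of another 7 d of light and those of another 14 d, and the last group had 7 d of light and then 7 d of darkness. Polyadenylated RNA was sequenced from 3 libraries per condition, 12 in all. No label gives the origin of the replicates within a condition (seed lots, plates or days), and the p-values therefore reflect only the spread over 3 libraries, part of which can be technical.

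A replication origin is licensed when the origin recognition complex, CDC6 and CDT1 load the ring of MCM2 to MCM7 onto DNA before the DNA synthesis phase of the cell cycle. The ring is the core of the replicative helicase, MCM10 takes part in setting it to work, and PCNA is the sliding clamp that holds polymerases on DNA. In plants these genes are known as targets of E2F transcription factors, and the cells of a mature seed mostly rest before DNA synthesis until germination.

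Total counts per library were 3387609 to 3996148 at 1 d, 1596668 to 2689668 at 7 d, 916523 to 2448092 at 14 d and 1299536 to 1900418 after darkness, so the deepest libraries were those of 1 d. Replicate 3 of 7 d and replicate 2 of 14 d stood apart from the other libraries of their condition, with a chi-square per degree of freedom of 5.55 to 7.68 against 1.14 to 3.51 for all other replicate pairs. Levels are given below in CPM, read counts relative to a library size scaled by the trimmed mean of M-values, with SD over n = 3 libraries. Changes are log2 fold changes of the same fit ± standard error. A change was called at an adjusted p below 0.05 in edgeR's two-sided quasi-likelihood test over 15301 tested gene models. A library with 0 counts allows a level of up to 3 counts, which came to 3.54 CPM in replicate 1 of 14 d and to 0.684 to 2.44 CPM in the other libraries, for counting error only.

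All 12 licensing gene models were lower at 7 d, at 14 d and after darkness than at 1 d, by 2.03-fold to 26.4-fold. These comparisons called 29.7%, 31.6% and 35.5% of all tested gene models lower. Of the 12, 6 passed the filter on low counts through the 1 d libraries alone, as did 897 of the 15301 tested models. These 6 had to be high at 1 d to be tested, and MCM6, with the 26.4-fold change, is among them. Summed over the 12 models, the libraries of 1 d stood at 430, 447 and 457 CPM, those of 7 d at 81.6, 108 and 63.4 CPM, those of 14 d at 54.3, 88.6 and 67.2 CPM, and those kept in darkness at 68.1, 61.7 and 63.6 CPM. The mean was 445 ± 13.9 CPM at 1 d against 84.2 ± 22.3 CPM at 7 d, 70.1 ± 17.3 CPM at 14 d and 64.5 ± 3.27 CPM after darkness, which are 18.9%, 15.8% and 14.5% of the level at 1 d. In whole seeds, fewer cells that use a gene and less of its RNA per cell cannot be told apart.

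MCM2 (model Aa31LG3G14210, code AT1G44900) had the highest level per length at 1 d. Its libraries stood at 90.2, 86.3 and 88.3 CPM at 1 d, at 14.0, 21.5 and 6.97 CPM at 7 d, at 5.90, 18.0 and 15.7 CPM at 14 d, and at 8.09, 10.6 and 16.0 CPM after darkness. The lowest library of 1 d was above each of the 9 later libraries, and the 3 later conditions overlapped. The log2 change from 1 d was -2.58 ± 0.26 at 7 d, -2.58 ± 0.29 at 14 d and -2.89 ± 0.30 after darkness.

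MCM3 (Aa31LG9G6610, AT5G46280) kept the largest part of its level among the 6 ring subunits in each later condition, with 29.9%, 27.5% and 21.7% of the mean at 1 d. It stood at 62.4, 69.4 and 70.2 CPM at 1 d, at 25.4, 19.8 and 15.2 CPM at 7 d, at 20.07, 21.2 and 14.2 CPM at 14 d, and at 13.5, 13.8 and 16.6 CPM after darkness. The 1 d libraries did not overlap with the rest, and the log2 changes were -1.70 ± 0.16, -1.84 ± 0.18 and -2.19 ± 0.18 in the order of the conditions above.

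MCM4 (Aa31LG8G13790, AT2G16440) stood at 50.4, 53.6 and 53.1 CPM at 1 d, at 8.09, 13.2 and 6.34 CPM at 7 d, at 9.45, 7.76 and 6.72 CPM at 14 d, and at 6.74, 8.93 and 6.64 CPM after darkness. Each later condition was thus well below 1 d, with log2 changes of -2.47 ± 0.18, -2.74 ± 0.21 and -2.83 ± 0.21.

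MCM5 (Aa31sc130G100, AT2G07690) stood at 60.4, 71.6 and 63.6 CPM at 1 d, at 5.51, 13.2 and 5.07 CPM at 7 d, at 0, 6.94 and 0 CPM at 14 d, and at 5.39, 5.68 and 4.42 CPM after darkness. All of its 17 counts at 14 d came from replicate 2, a library that stood apart, while the libraries of 7 d and of darkness held 7 to 30 counts each. The log2 changes were -3.01 ± 0.35, -4.17 ± 0.45 and -3.66 ± 0.42. Without replicate 2 of 14 d, MCM5 was at 0 in both remaining libraries and at least 47.3-fold lower than at 1 d, set against 3 counts over these libraries. Without replicate 2 of 7 d its log2 change at 7 d was -3.62.

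MCM6 (Aa31LG9G8530, AT5G44635) and MCM7 (Aa31LG5G1690, AT4G02060) had the largest changes of the subunits after darkness. MCM6 stood at 37.3, 32.4 and 39.2 CPM at 1 d, at 4.04, 2.20 and 4.44 CPM at 7 d, at 3.54, 1.63 and 2.99 CPM at 14 d, and at 2.70, 0 and 1.11 CPM after darkness, where its 3 libraries held 6 counts in all. MCM7 stood at 37.6, 38.1 and 42.2 CPM at 1 d, at 1.84, 7.03 and 3.80 CPM at 7 d, at 0, 3.68 and 1.49 CPM at 14 d, and at 0.674, 1.62 and 3.87 CPM after darkness. In both genes the 1 d libraries were far above all others, which held 0 to 16 counts each. The log2 changes were -3.36 ± 0.26, -3.90 ± 0.32 and -4.72 ± 0.36 for MCM6. Those of MCM7 were -3.24 ± 0.33, -4.03 ± 0.41 and -4.12 ± 0.42. Leaving out 1 library moved some of these values by more than 1.5-fold. MCM7 came to -3.94 at 7 d without replicate 2 of 7 d, to -5.37 at 14 d without replicate 2 of 14 d and to -5.10 after darkness without replicate 3 of that condition, and MCM6 came to -5.70 after darkness without replicate 1.

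MCM10 (Aa31LG7G15660, AT2G20980), which acts beside the ring, had a smaller change than each ring subunit in all 3 comparisons. It stood at 20.0, 18.0 and 22.4 CPM at 1 d, at 6.62, 8.35 and 10.8 CPM at 7 d, at 8.27, 6.94 and 9.71 CPM at 14 d, and at 13.5, 8.93 and 5.53 CPM after darkness. Every library of 1 d was above every later one, and the highest later value was that of replicate 1 after darkness. The log2 changes were -1.28 ± 0.23, -1.32 ± 0.26 and -1.15 ± 0.25, and the differences between the changes of MCM10 and of the subunits were not tested.

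CDT1A (AT2G31270) codes for a loader that brings the ring to the origin. Model Aa31LG5G5680 stood at 19.8, 20.7 and 23.9 CPM at 1 d, at 2.94, 1.76 and 0 CPM at 7 d, at 1.18, 2.86 and 3.74 CPM at 14 d, and at 3.37, 3.25 and 2.77 CPM after darkness. Model Aa31LG1G7150 stood at 16.8, 19.9 and 20.07 CPM at 1 d, at 1.84, 3.96 and 1.90 CPM at 7 d, at 0, 0.817 and 2.24 CPM at 14 d, and at 2.70, 0 and 0.553 CPM after darkness. Model Aa31sc13G110 stood at 8.27, 8.44 and 8.21 CPM at 1 d, at 0.735, 4.40 and 0.634 CPM at 7 d, at 0, 2.86 and 1.49 CPM at 14 d, and at 2.70, 3.25 and 0.553 CPM after darkness. Each model was higher in every 1 d library than in any later one. The 3 models together held 588 counts at 1 d and 42, 27 and 28 counts in the later conditions. Per length, Aa31LG5G5680 held 54.0% ± 1.95 of the CDT1A signal at 1 d, with 52.4% to 56.2% in the 3 libraries, and the counts left later were too few to give such a share. In raw counts, Aa31LG5G5680 held 260 of the 588, Aa31LG1G7150 held 228 and Aa31sc13G110 held 100. Their deposited gene lengths were 2582, 5320 and 2374 bases. Whether these lengths include introns was not checked, so the share per length is uncertain.

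The log2 changes of Aa31LG5G5680 were -3.53 ± 0.33 at 7 d, -2.92 ± 0.34 at 14 d and -2.78 ± 0.33 after darkness. Those of Aa31LG1G7150 were -2.84 ± 0.34, -4.06 ± 0.47 and -4.03 ± 0.47, and those of Aa31sc13G110 were -2.04 ± 0.49, -2.07 ± 0.55 and -2.03 ± 0.55. These values also moved by more than 1.5-fold when 1 library was left out. Aa31LG5G5680 came to -4.34 at 7 d without replicate 1 of 7 d, Aa31LG1G7150 to -4.87 at 14 d without replicate 3 of 14 d and to -5.66 after darkness without replicate 1. Aa31sc13G110 came to -3.50 at 7 d without replicate 2 of 7 d and to -3.13 at 14 d without replicate 2 of 14 d.

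CDC6 (AT2G29680) codes for the ATPase that works with CDT1 in loading the ring. Its models had smaller changes than the CDT1A models at 7 d and 14 d, a difference that was not tested. Model Aa31LG5G6800 stood at 16.0, 20.14 and 16.9 CPM at 1 d, at 6.62, 8.35 and 4.44 CPM at 7 d, at 3.54, 8.58 and 7.47 CPM at 14 d, and at 4.72, 2.44 and 3.32 CPM after darkness. Model Aa31LG5G550 stood at 10.5, 8.98 and 9.12 CPM at 1 d, at 4.04, 3.96 and 3.80 CPM at 7 d, at 2.36, 7.35 and 1.49 CPM at 14 d, and at 4.04, 3.25 and 2.21 CPM after darkness. In both models every 1 d library was above every later one. Aa31LG5G6800 held 212 of the 327 CDC6 counts at 1 d and 75.6% ± 3.55 of the signal per length. That share uses a deposited gene length of 3647 bases for it and of 6146 bases for the other model. Its log2 changes were -1.39 ± 0.23, -1.27 ± 0.25 and -2.30 ± 0.30, and those of Aa31LG5G550 were -1.26 ± 0.32, -1.02 ± 0.34 and -1.61 ± 0.38. The change of Aa31LG5G550 at 14 d was -0.69 with an adjusted p of 0.0709 without replicate 3 of 14 d, and -2.37 without replicate 2. No source used here says how reads shared by copies of CDT1A or of CDC6 were counted, so the split between copies is uncertain.

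**Figure D1:**
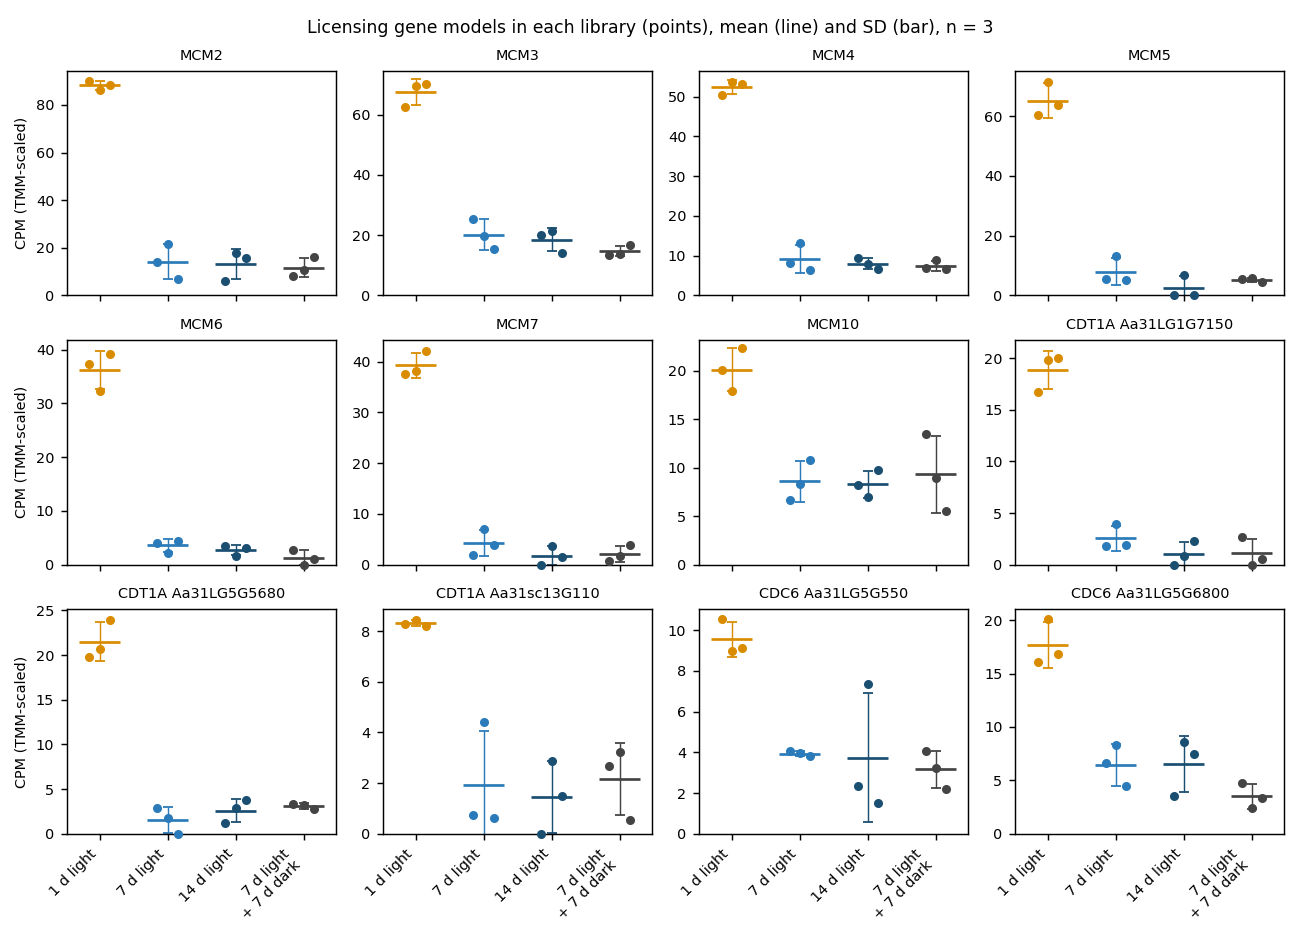
Level of each of the 12 licensing gene models, in CPM (linear axis from 0, 1 panel per model with its own scale), in the 4 conditions. Points are libraries, horizontal lines are means, vertical bars are the SD over 3 libraries (cut off at 0), and in each panel the 3 points of 1 d lie above the 9 others.

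Adjusted p-values (edgeR) of the 12 models were 3.19e-07 to 0.00385 at 7 d, 4.00e-07 to 0.0184 at 14 d and 1.35e-07 to 0.00527 after darkness, each against 1 d. The CPM ranges of the 12 models lay apart from and below those of 1 d in each comparison, as they did for 34.5%, 35.4% and 40.4% of all tested models. All 9 later libraries were below the lowest library of 1 d for the 12 members, and for 28.7% of all tested models. The median log2 change of the members was -2.52, -2.66 and -2.80, against 0.02, 0.00 and -0.04 over all tested models. The 3 comparisons share the 1 d libraries, so they are not independent. Of the 12 models, 6 passed the filter on low counts through the 1 d libraries alone, namely MCM6, MCM7, the CDT1A models and CDC6 Aa31LG5G550, so that they had to be high there to be tested. The other 6, MCM2 to MCM5, MCM10 and CDC6 Aa31LG5G6800, passed also through later libraries.

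**Figure D2:**
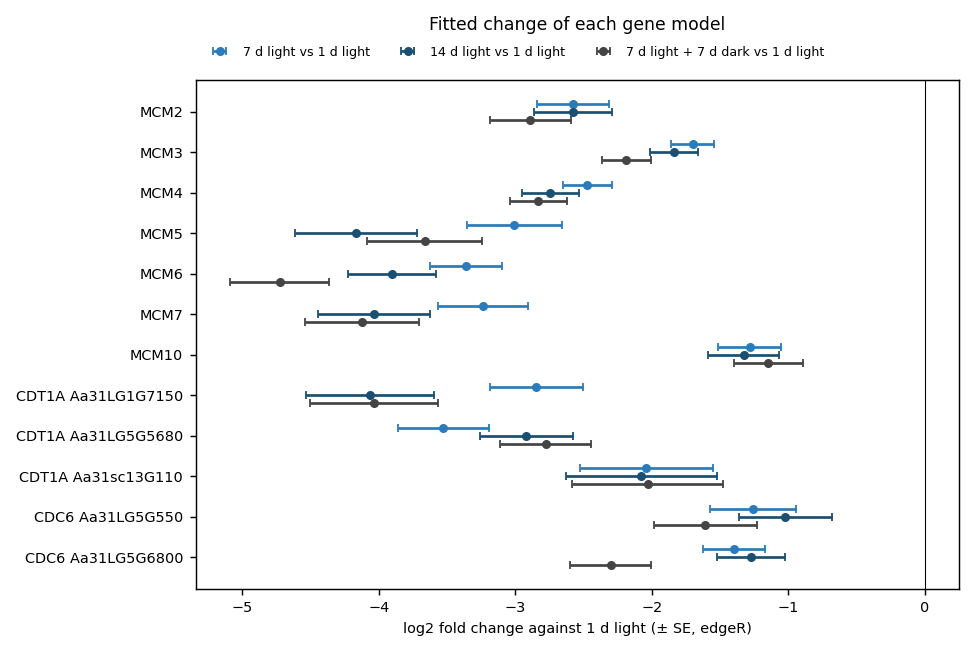
log2 fold change of each licensing gene model against 1 d of light, at 7 d, at 14 d and after 7 d of light with 7 d of darkness. Points are edgeR's estimates and bars their standard errors. All lie below 0, from -4.72 for MCM6 after darkness to -1.02 for CDC6 Aa31LG5G550 at 14 d.

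Depth and read density moved with the condition. The summed level of the members was lowest in the shallowest library at 7 d, at 14 d and after darkness, but not at 1 d. At 14 d it was 54.3, 67.2 and 88.6 CPM in libraries of 916523, 1364240 and 2448092 counts. At 1 d it was 447, 430 and 457 CPM in libraries of 3387609, 3658462 and 3996148 counts. The part of depth in these differences within a condition was not tested. With all libraries thinned to 916523 counts, 10 models were still tested and these 10 were called lower in each comparison with 1 d. The members held 0.0024 to 0.0235 reads per base of gene length on average over the libraries, and the 4867 tested models within that range had a median log2 change of -0.29 at 7 d, -0.39 at 14 d and -0.51 after darkness. When trends of the log ratio with gene length and read density were removed, 11, 11 and 9 of the 12 models were called. The calls lost were those of CDC6 Aa31LG5G550 in all 3 comparisons (-0.62, -0.29 and -0.67, adjusted p 0.0868, 0.485 and 0.124), of MCM10 after darkness (-0.50, adjusted p 0.121) and of CDT1A Aa31sc13G110 after darkness (-1.10, adjusted p 0.108). Other values moved by more than 1.5-fold but kept their call. They were those of CDT1A Aa31sc13G110 at 7 d and 14 d (-1.39 and -1.37), CDC6 Aa31LG5G6800 at 14 d and after darkness (-0.68 and -1.56) and CDT1A Aa31LG1G7150 in the same conditions (-3.42 and -3.21). After darkness CDT1A Aa31LG5G5680 (-2.07), MCM6 (-4.11) and MCM7 (-3.54) moved as well.

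Marker genes of seed tissues differed between the conditions too. The 10 seed reserve models, of storage proteins, oleosins and late embryo proteins, summed to 1277 to 1493 CPM at 1 d, 2388 to 3808 CPM at 7 d, 2702 to 6456 CPM at 14 d and 3601 to 4948 CPM after darkness, and all 10 were called higher in each comparison with 1 d. With trends removed, 9, 10 and 10 were called, and their median log2 change was 0.47, 0.77 and 0.81, against 1.04, 1.62 and 1.52 without removal. Raw counts of some hardly followed depth: SESA5 held 450, 435 and 472 at 1 d and 574, 533 and 538 at 14 d. OLEO2 held 514, 510 and 524, and then 484, 552 and 538. No model of at least 300 bases held more than 0.996 reads per base in any library. Whether a limit on counts raised the CPM of dense genes in smaller libraries was not tested. The 5 root meristem models summed to 80.6 to 89.5 CPM at 1 d and to 31.9 to 67.2 CPM in the later libraries. Most of this sum was SCR, with 264, 247 and 290 counts at 1 d and 17, 133 and 42 in the smaller libraries of 14 d. PLT1 held 43, 18 and 35 counts at 1 d and 9, 18 and 8 at 14 d. SHR, which was not tested, held 21, 15 and 29 counts at 1 d and 0 at 7 d and 14 d. WOX5 held 0, 2 and 0 counts at 1 d, so that its 0 in every later library says little. Of 3 tested models, 1, 1 and 1 were called lower, near the 29.7%, 31.6% and 35.5% of all tested models. The model called at 7 d was PLT2, with a log2 change of -1.19, and with trends removed 0 were called lower at 7 d. The 5 seed coat models summed to 29.3 to 30.6 CPM at 1 d and to 4.72 to 8.30 CPM later, with TT12 at 0 throughout. Most of the seed coat sum was MUM4, the only one of them tested, which had 110 to 131 counts per library at 1 d and 4 to 17 later and was called lower in each comparison with 1 d. The 4 endosperm models summed to 152 to 227 CPM over all libraries, with ZOU at 0 throughout. Of the 2 tested, NCED6 was called higher in each comparison with 1 d, by 2.03, 1.72 and 2.35, and MAN7 was called lower, by -0.29, -0.43 and -0.48. The 4 shoot meristem models summed to 1.18 to 8.82 CPM, with ANT at 0 throughout and WUS and CLV3 at 0 to 1 counts in every library, those of 1 d included. The part of these shifts in the licensing result was not tested.

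Among the 3 later conditions no difference was called for any licensing model. From 7 d to 14 d of light, edgeR called 0 models, with 0 at an unadjusted p below 0.05 and 0 by DESeq2, where edgeR called 0.307% of all tested models and 11.8% had an unadjusted p below 0.05. The CPM ranges overlapped in all 12, and lay apart in 11.9% of all tested models. The changes ran from -1.22 ± 0.76 for CDT1A Aa31LG1G7150 to 0.61 ± 0.60 for CDT1A Aa31LG5G5680, with a median of -0.09. MCM2 differed by -0.00 ± 0.38 and MCM3 by -0.14 ± 0.21, and the standard errors of the 12 models ran from 0.21 to 0.81. Without replicate 2 of 14 d, 1 model was called: MCM5, then at 0 in the 14 d libraries. Over all tested models, 1664 were called without that replicate, against 47 with it.

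The last week in darkness was compared with a last week in light, 14 d in all in both. Here edgeR called 0 models, 1 at an unadjusted p below 0.05 and 0 by DESeq2, against 13.1% called and 26.7% at an unadjusted p below 0.05 among all tested models. The CPM ranges overlapped in all 12 members and lay apart in 27.7% of tested models. The model with an unadjusted p below 0.05 was CDC6 Aa31LG5G6800, with 3.49 ± 1.15 CPM after darkness and 6.53 ± 2.65 CPM at 14 d, a log2 change of -1.03 ± 0.40 and an adjusted p of 0.114. The median change was -0.09, and 7 models were lower and 5 higher. At these low counts the standard errors ran from 0.23 for MCM3 to 0.98 for CDT1A Aa31LG1G7150. The 0 calls therefore do not show a weaker response to darkness than that of other genes. Without replicate 2 of 14 d, MCM5 was called, higher after darkness.

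Darkness after 7 d of light was also set against 7 d of light alone. edgeR again called 0 models, 3 at an unadjusted p below 0.05 and 0 by DESeq2, against 18.4% called and 32.8% at an unadjusted p below 0.05 among all tested models. The CPM ranges again overlapped in all 12 members and lay apart in 33.5% of tested models. The 3 models were MCM3 (-0.48 ± 0.22, adjusted p 0.139), MCM6 (-1.37 ± 0.61, adjusted p 0.137) and CDC6 Aa31LG5G6800 (-0.91 ± 0.38, adjusted p 0.117). Without replicate 3 of 7 d, MCM3 was called, with a change of -0.61 and an adjusted p of 0.0479. The change of MCM6 was -2.32 without replicate 1 of the dark condition and -0.92 without replicate 2, with adjusted p of 0.0769 and 0.337 (edgeR). The median over the 12 models was -0.42, with 9 lower and 3 higher, against -0.03 over all tested models. Here too the counts were low, and the standard errors ran from 0.22 for MCM3 to 0.81 for CDT1A Aa31sc13G110.

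The order of the later conditions differed between members, within their overlap. The means were highest at 7 d and lowest after darkness in MCM2, MCM3, MCM4 and MCM6. CDC6 Aa31LG5G550 had its lowest mean after darkness too, and CDC6 Aa31LG5G6800 had its highest later mean at 14 d. In MCM5, MCM7 and CDT1A Aa31LG1G7150 the lowest mean was that of 14 d. In MCM10, CDT1A Aa31LG5G5680 and CDT1A Aa31sc13G110 the means after darkness were the highest of the 3, with 9.31 ± 3.99 CPM for MCM10 against 8.58 ± 2.09 CPM at 7 d and 8.31 ± 1.39 CPM at 14 d.

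The 6 ring subunits, which form the ring with 1 copy of each, were unequal in transcript level. Levels per length use the deposited gene lengths, 4018 to 4936 bases for the 6, and whether these include introns was not checked. Per length, MCM2 stood at 19.3 ± 0.43 CPM per kb at 1 d, MCM3 at 15.8 ± 1.01, MCM5 at 15.6 ± 1.37, MCM4 at 10.6 ± 0.35, MCM7 at 9.78 ± 0.63 and MCM6 at 8.66 ± 0.84. MCM2 was above MCM3 and MCM5 in every library of 1 d, these overlapped and were above the other 3, and the ranges of MCM4 and MCM7 overlapped. The highest mean was 2.23 times the lowest at 1 d, 5.55 times at 7 d, 10.1 times at 14 d and 11.3 times after darkness. The last 2 ratios divide by MCM7 at 14 d, with 11 counts, and MCM6 after darkness, with 6 counts, each with 1 library at 0, and are near the counting limit. The sum of the 6 was 79.7 ± 2.23 CPM per kb at 1 d and then 13.5 ± 3.93, 10.5 ± 2.59 and 9.51 ± 1.36 CPM per kb.

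MCM3 stood in place of MCM2 as the highest subunit in the later means per kb, although MCM2 was above MCM3 in 2 of the 9 later libraries. Its share of the summed level per kb was 18.9%, 20.2% and 20.15% in the libraries of 1 d, 44.4%, 26.5% and 37.1% at 7 d, 53.7%, 37.0% and 36.1% at 14 d, and 37.6%, 35.5% and 35.2% after darkness. All 9 later libraries thus had a higher MCM3 share than each library of 1 d. The mean share was 19.8% ± 0.74 at 1 d and then 36.0% ± 8.98, 42.3% ± 9.92 and 36.1% ± 1.31.

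The shares of MCM5 and MCM7 were lower in the later conditions. MCM5 held 19.5% ± 1.52 of the sum at 1 d and 13.5% ± 4.17, 4.11% ± 7.12 and 13.3% ± 3.20 later. MCM7 held 12.3% ± 0.55 and then 7.77% ± 3.77, 3.61% ± 3.42 and 5.06% ± 3.41. Their later libraries were all below those of 1 d, and the ranges of MCM2 and MCM4 overlapped with 1 d in each comparison. In an exact two-sided permutation test over libraries, 3 against 3, the differences of MCM3, MCM5 and MCM7 in each comparison and of MCM6 after darkness had p = 0.1, the smallest p this design allows, and an adjusted p of 0.18 over 18 tests, so none could pass the threshold. A share of low counts is coarse: the ring genes held 33 counts in all in replicate 1 of 14 d and 50 to 175 in the other later libraries.

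**Figure D3:**
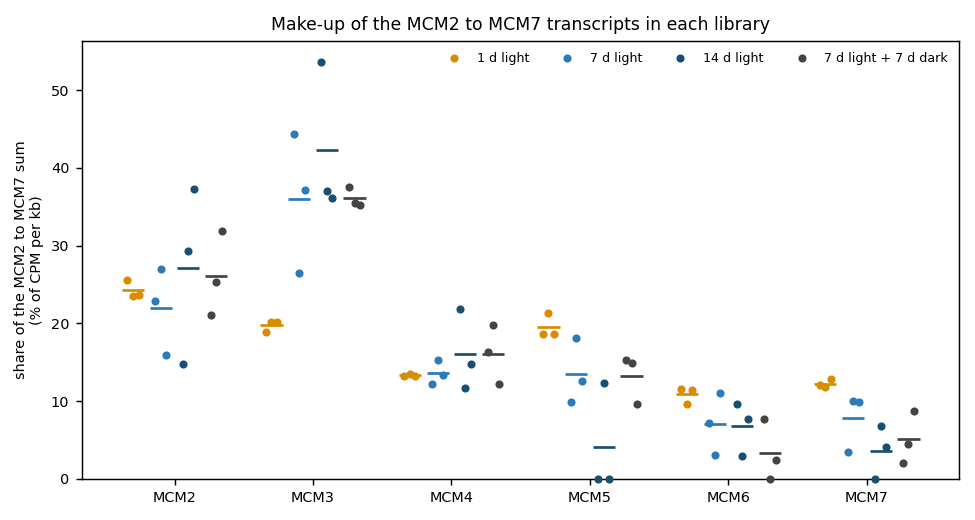
Share of each ring subunit in the summed level of MCM2 to MCM7 per kb of gene length, in percent, by condition. Points are libraries and horizontal strokes are means over 3 libraries. The MCM3 share lies at 18.9% to 20.2% at 1 d and at 26.5% to 53.7% later.

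Genes that work with the licensing factors were read from lists of replication genes, with the number of tested models given for each. Beside their counts stand the shares of all tested models, which were 29.7%, 31.6% and 35.5% called lower and 30.7%, 31.8% and 33.2% called higher in the same order. ORC1A, POLA4, RPA1B, TSO2 and TK1A passed the filter on low counts through the 1 d libraries alone, and so had to be high there to be tested.

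For the origin recognition complex, which marks the origins, 6 models were tested, and 1, 2 and 3 were called lower at 7 d, 14 d and after darkness and 0 higher, numbers of lower calls that say little beside the shares above. ORC1A, its largest subunit, fell from 8.29 ± 0.87 CPM at 1 d to 3 counts in all at 7 d, a ratio of 18.2 with a 95% counting interval of 6.05 to 89.7, and to 0 counts at 14 d, at least 12.8-fold lower. ORC5 stood at 59.2 ± 3.86 CPM at 1 d and 59.4 ± 6.40 CPM at 7 d, a log2 change of -0.00 ± 0.11, and was not called in any of these comparisons. The median change of the list at 7 d was -0.18.

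Of the relatives of the members, 4 models were tested. PCNA2, of the second sliding clamp gene, fell from 45.8 ± 1.58 CPM at 1 d to 15.9 ± 0.55 CPM at 7 d, 15.2 ± 3.18 CPM at 14 d and 10.6 ± 0.48 CPM after darkness, by -1.53 ± 0.13, -1.52 ± 0.14 and -2.10 ± 0.15. ETG1, which codes for a protein that binds the MCM ring, fell from 49.6 ± 2.60 CPM to 7.47 ± 1.03, 6.97 ± 3.47 and 5.92 ± 2.73 CPM. MCM9, a relative of the ring subunits, rose from 34.3 ± 2.93 CPM to 55.2 ± 10.5 CPM at 7 d and 60.2 ± 9.58 CPM after darkness. Its change at 14 d, 0.51 ± 0.18, was called, but not with scaling by library totals. MCM8 stood at 4.42 ± 1.10 CPM at 1 d and 3.62 ± 2.97 CPM at 7 d, which was not called, and held 2 counts after darkness, a ratio of 9.95 with a counting interval of 2.62 to 84.3.

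The GINS complex joins the ring to form the active helicase. Of 6 tested models of the helicase activation list, 4, 3 and 4 were called lower and 0, 1 and 0 higher, with medians of -0.36, -0.27 and -0.47. The models of CDC45 were not tested, with 3 to 10 counts per library at 1 d and 0 to 1 later. PSF2 Aa31LG3G120 fell from 18.3 ± 0.55 CPM at 1 d to 5.53 ± 3.32 CPM at 14 d, by -1.47 ± 0.33, and SLD5 fell from 10.8 ± 1.56 to 6.15 ± 0.56 CPM at 7 d, by -0.81 ± 0.27. PSF1 Aa31LG1G19480 fell from 59.8 ± 1.70 CPM at 1 d to 47.0 ± 1.82 CPM at 14 d and 37.4 ± 6.41 CPM after darkness, with changes of -0.34 ± 0.12 and -0.66 ± 0.13. PSF3B rose at 14 d, by 0.73 ± 0.15. With length and density trends removed, 1, 2 and 1 models were called lower.

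For the replicative polymerases, 5, 6 and 6 of 11 tested models were called lower and 4, 3 and 3 higher, the latter close to the shares of all tested models. POLA1 and POLA4 are subunits of the polymerase alpha and primase complex, which starts new strands. POLA1, the polymerase subunit, fell from 47.0 ± 4.14 CPM at 1 d to 12.2 ± 3.46, 7.82 ± 0.64 and 5.77 ± 2.21 CPM, and POLA4 fell from 11.2 ± 0.74 CPM to 0.725 ± 0.34 CPM at 7 d, by -3.79 ± 0.39. POLD4, a small subunit of polymerase delta, rose in CPM, from 63.4 ± 5.20 CPM to 136 ± 31.8, 186 ± 42.8 and 170 ± 21.96 CPM. Its raw counts were 240 to 266 per library at 1 d and 183 to 336 in the smaller later libraries. Whether a limit on counts had a part in this rise was not tested.

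Of the 7 tested models of clamp loaders, ligase and flap nuclease, 2 were called lower in each comparison, and 0, 1 and 2 higher, which is no more than the shares of all tested models. With trends removed 2, 2 and 3 were called higher, and with scaling by library totals 0, 0 and 1. RFC4, a clamp loader subunit, fell from 68.7 ± 4.05 CPM to 20.7 ± 6.36, 28.3 ± 5.07 and 20.4 ± 3.63 CPM. FEN1, the flap nuclease, stood at 127 ± 1.21 CPM at 1 d and 127 ± 18.0 CPM at 7 d, and rose after darkness, by 0.47 ± 0.12, a call that was lost with trends removed.

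Among the subunits of RPA, which covers single-stranded DNA, 4, 4 and 5 of 9 tested models were called lower and 2, 3 and 3 higher, numbers that say little beside the shares of all tested models. RPA1B fell from 32.7 ± 1.12 CPM at 1 d to 4.02 ± 2.37, 2.87 ± 0.46 and 1.87 ± 1.34 CPM. In CPM, copies of 1 gene went opposite ways: RPA2A Aa31LG7G11480 fell by -1.88 ± 0.16 at 7 d, while RPA2A Aa31sc15G60 rose at 14 d by 1.30 ± 0.22. The raw counts of Aa31sc15G60 were 102, 87 and 88 at 1 d and 64, 105 and 81 in the smaller libraries of 14 d. Whether a limit on counts had a part in its rise was not tested.

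Of the 5 tested models of nucleotide supply, 5, 4 and 5 were called lower, with medians of -1.94, -2.29 and -3.19. TSO2 and TK1A, 2 of these 5, are among those that had to be high at 1 d to be tested. TSO2, a small subunit of ribonucleotide reductase, fell from 41.7 ± 3.12 CPM at 1 d to 3.45 ± 1.35, 0.915 ± 0.23 and 3.105 ± 2.2 CPM. RNR1, the large subunit, fell in both its models, from 115 ± 7.49 CPM to 30.7 ± 9.30, 22.3 ± 5.37 and 12.5 ± 3.31 CPM in Aa31LG7G14770 and by -1.94 ± 0.17 at 7 d in Aa31LG6G15920. RNR2A was called at 7 d but not at 14 d, where its change was -0.26 ± 0.13 with an adjusted p of 0.102.

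**Figure D4:**
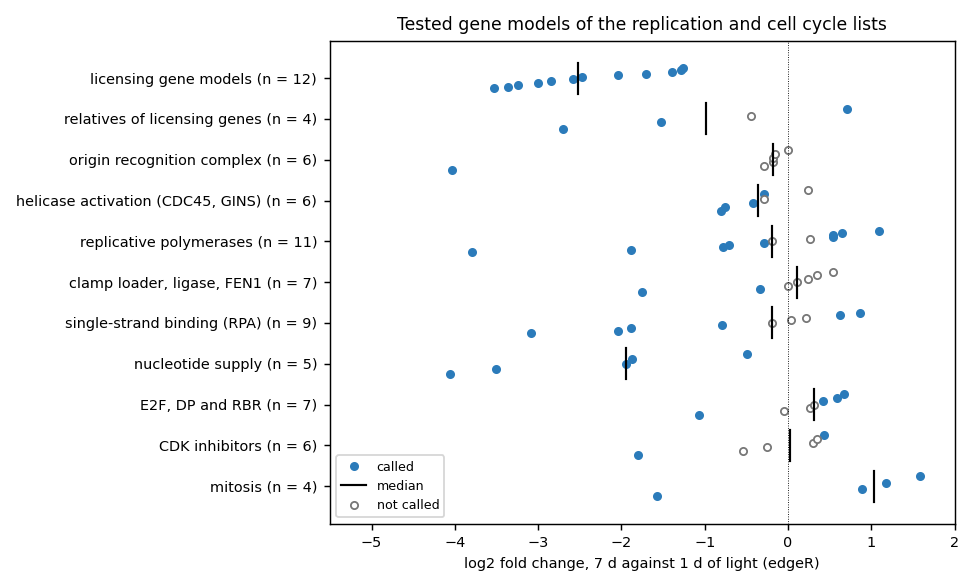
log2 fold change at 7 d against 1 d of light for the tested gene models of the licensing group and of each replication or cell cycle list, as edgeR estimates. Filled points were called, open ones not, and the vertical strokes are list medians. ORC1A and TK1A, with 3 counts at 7 d, are at their fitted values. The licensing models lie at -3.53 to -1.26, with a median of -2.52.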

How the data were processed

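The authors deposited 1 table, which holds raw read counts per gene model and library beside RPKM values and gene lengths, and pairs 21661 models with an Arabidopsis gene. The deposited RPKM values could be rebuilt from the deposited counts, gene lengths and library totals with a relative difference of at most 3.45e-08, and entered no test. Per the labels' protocols, poly(A) RNA was selected and made into libraries with the Lexogen SENSE kit. The tools named in the submitters' processing notes are HTSeq 0.11.2, Bowtie2 2.3.5.1, Trimmomatic and bcl2fastq 2.17.1, with the build TAIR10. No source used here gives their settings, their roles or the treatment of reads shared by similar copies.

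Columns were matched to conditions by sample title. Counts were fitted with edgeR 4.0.16 (R 4.3.3) in 1 model of 4 condition means over 12 libraries, with TMM scaling, the default expression filter (a cut of 4.76 CPM) and Benjamini-Hochberg adjustment over 15301 tested models. The fit was tested on simulated data. Standard errors are the absolute log2 change over the square root of F. The members and lists, and the rule for the genes named, were chosen with earlier results of these data known. From each list up to 4 called models with the smallest adjusted p and up to 2 uncalled ones of highest level could be named. PCNA2, ETG1, MCM8 and MCM9 are all tested relatives. The untested models of KRP1, KRP6, KRP7 and CDC45 were named outside this rule. Alternatives were DESeq2 1.42.0, other scalings, no filter, only the 6 libraries compared, a replicate block, thinning, trend removal and leaving out each library. The calls of list genes under these settings were computed after seeing the data. Intervals and limits cover counting error only. Genes left untested held 0.379% of counts.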

Additional observations from a re-analysis of the deposited data

How the results depend on the processing

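For 40 log2 changes of licensing models, 36 against 1 d and 4 with an unadjusted p below 0.05 in the other comparisons, 791 values were recomputed under the alternatives, of which 0 reversed, 6 lost their call and 1 gained it. For 133 called changes of the list genes against 1 d, 2644 values were recomputed, 185 lost their call, over 49 changes, and 2 reversed with trends removed, SIM at 14 d (-0.03) and PSF1 Aa31LG4G470 after darkness (0.03). The number of licensing models called stayed at 12 in each comparison with 1 d under DESeq2, both other scalings, no filter and the 6 libraries compared alone, was 10 with thinned counts, where 10 were tested, and 11, 11 and 9 with trends removed. Leaving out 1 library gave 12 at 7 d, 11 to 12 at 14 d and 12 after darkness. Among the later conditions, leaving out 1 library gave 0 to 1 in each comparison, and the other alternatives gave 0. With only the 6 libraries compared, 6, 4 and 4 models were tested there. Deviations from the condition means were correlated between libraries of different conditions. For same-numbered libraries r ran from -0.48 to 0.48 with a median of -0.05, and 4 of 18 were above 0.1. For the other pairs it ran from -0.69 to 0.53 with a median of 0.00, and 14 of 36 were above 0.1. The lowest r was that of replicate 3 of 7 d with replicate 2 of 14 d, both of which stood apart from their condition. Replicate 2 of 14 d had r of 0.53 and 0.48 with replicates 1 and 2 of 7 d. Replicate 3 of 7 d had r of 0.46 and 0.37 with replicates 1 and 3 of 14 d. With means of only 3 libraries, these values cannot settle whether same-numbered libraries share an origin. With a replicate block the counts were 12 in each comparison with 1 d and 0 in the others. Over all tested models, 47 were called between 7 d and 14 d, against 77 by DESeq2, 71 with trends removed, 24 with the 6 libraries, 25 with the replicate block, 26 when thinned and 13 to 1664 in the leave-outs. For darkness against 14 d the number was 2000, against 856 with the 6 libraries, 1057 when thinned, 2610 with trends removed and 1189 to 2241 in the leave-outs. For darkness against 7 d it was 2818, against 1431 when thinned, 3615 with trends removed and 1609 to 3798 in the leave-outs. With scaling by library totals the median log2 change of all models was -0.11, -0.16 and -0.24 in the comparisons with 1 d, against 0.02, 0.00 and -0.04, and 34.6% of the models called between darkness and 7 d were higher after darkness, against 45.7%. With trends removed this share was 56.3%, and for darkness against 14 d it was 55.6%, against 46.25%. Counts of 0 to 69 per model and later library limit the comparisons among the later conditions.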

Other observations

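Of 7 tested models of E2F factors, their DP partners and RBR1, the retinoblastoma protein that holds E2F factors in check, 1 was called lower and 3 higher at 7 d, and the median was 0.31, where 29.7% of all tested models were called lower and 30.7% higher, so the number of higher calls says little. DPA fell from 20.9 ± 2.35 CPM at 1 d to 9.98 ± 1.09 CPM at 7 d, by -1.07 ± 0.21. E2FA rose by 0.59 ± 0.18 at 7 d and DPB by 0.42 ± 0.12. Both calls, like that of DEL3, were lost with scaling by library totals, which left 0 of the list called higher. With the other alternative scaling, by relative log expression, 3 were called higher at 7 d. With length and density trends removed 4 were, with a median of 0.53. RBR1 stood at 184 ± 2.13 CPM at 1 d and 220 ± 39.8 CPM at 7 d and was not called.

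Among 6 tested models of inhibitors of cyclin-dependent kinases, KRP5 fell from 29.5 ± 4.72 CPM at 1 d to 8.21 ± 3.29, 6.81 ± 2.13 and 8.55 ± 2.32 CPM. Of the 9 models of this list, KRP1, KRP6 and KRP7 were not tested. KRP1 held 15, 13 and 14 counts at 1 d and 0 in every later library, and KRP6 and KRP7 held 0 to 4 counts per library. KRP4 rose in CPM, from 69.1 ± 3.19 CPM to 116 ± 14.1 CPM at 14 d and 152 ± 15.8 CPM after darkness. KRP3 rose from 20.2 ± 0.97 CPM to 38.6 ± 5.96 and 42.8 ± 4.38 CPM in these conditions. The raw counts of KRP4 were 271, 267 and 292 at 1 d and 237, 199 and 241 in the smaller libraries kept in darkness. Those of KRP3 were 77, 78 and 88 and then 62, 48 and 86. The part of a limit on counts in these rises was not tested. Of 16 models of mitotic genes only 4 passed the filter on low counts. CDKB2;1, a mitotic kinase, rose from 44.2 ± 4.66 CPM at 1 d to 133 ± 18.96, 140 ± 17.9 and 157 ± 4.01 CPM, and CDC20.1 rose by 0.89 ± 0.10 at 7 d, while CDKB1;2 fell from 17.2 ± 1.38 CPM to 5.65 ± 0.84, 2.90 ± 1.03 and 3.00 ± 0.76 CPM.

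The 8 other models whose log2(CPM + 1) over the 12 libraries was most like the mean profile of the members had a Pearson r of 0.982 to 0.987. The libraries fall into those of 1 d and the later ones, so r measures little beside that contrast, and 351 of 15289 other tested models had r above 0.95. The first was a model described as a lycopene cyclase (Aa31LG3G12920), with 14.8 ± 0.69 CPM at 1 d and 1.04, 0.272 and 0.409 CPM in the later means. Others were described as a UDP-glucose 6-dehydrogenase (Aa31LG5G12600), with 52.5 ± 4.39 CPM at 1 d and 5.70 CPM at 7 d, and as breast cancer associated RING 1 (Aa31LG1G20800), with 15.8 ± 2.21 CPM at 1 d and 0.896 CPM at 7 d.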
